A study of Mus musculus with 4 samples.

Results

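The 10 genes described here encode the NF-κB transcription factor subunits Nfkb1, Nfkb2, Rel, Rela and Relb and the inhibitor proteins Nfkbia, Nfkbib, Nfkbie, Nfkbid and Nfkbiz. They were found by gene symbol among 38924 Ensembl identifiers. All 10 were listed, and all 10 passed the filter on low counts that left 14235 genes for testing. The libraries came from regulatory T cells (Treg) of mouse spleen, the CD4+ T cells that express Foxp3 and restrain immune responses. The groups were activated Treg (labelled aTreg) and resting Treg (labelled rTreg), with 2 libraries from independent animals in each. The labels print the same CD4+Foxp3+ gate for both populations. The labels give no strain, age or genotype. The title of the series concerns graded Foxo1 activity in Treg.

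NF-κB factors are dimers that wait in the cytoplasm until a receptor signal frees them. In the canonical route an IκB kinase phosphorylates IκB proteins such as IκBα, the product of Nfkbia, and their destruction releases dimers of Rela, Rel and p50, which is cut from the Nfkb1 product. In the noncanonical route the kinase NIK, encoded by Map3k14, leads to the processing of the Nfkb2 product p100 to p52, which pairs with RelB. T cell receptor and CD28 signals use the canonical route, and several TNF receptor family members on Treg use the noncanonical one. Rel is known for its part in Foxp3 induction during Treg development, and Rela and Rel for the identity of activated Treg. Several of these genes are themselves NF-κB targets. NF-κB activity itself was not measured in these libraries.

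Promoter sequences are shown because Nfkbia, Nfkb2, Rel and Nfkbid had letters of the κB motif, the DNA sequence that NF-κB dimers bind, in their RefSeq promoter windows (build GRCm38.p6). A window ran from 250 bases before to 50 bases after a transcript start. The κB consensus was searched on both strands and occurred in 5.8% of 32851 windows of the same length. A stricter form contained in the consensus, shown by the capitals of Nfkbia and of the Nfkb2 site after a start, occurred in 0.411% of windows. Of the 10 genes 7 had windows, 11 in all, and 6 windows of 4 genes held a consensus match. Rela, Nfkbib and Nfkbie had windows without a match, and Nfkb1, Relb and Nfkbiz had no entry. The matches are letters in a sequence and were not tested as binding sites. Capitals mark the motif in the sequences, which are read 5′ to 3′ on the strand of the gene. The first 2 are the 250 bases before the start of Nfkbia (chr12:55492648-55492897, minus strand) and of Rel (chr11:23770970-23771219, minus strand). The others are stretches of 30 bases around single matches. Those of Nfkb2 lie 39 bases before a start (chr19:46304688-46304717, plus strand) and 10 bases after another start (chr19:46305695-46305724, plus strand), which is also 225 bases before the third Nfkb2 start. A further Nfkb2 match, 11 bases before the first start, is not printed. That of Nfkbid lies 226 bases before a start (chr7:30422170-30422199, plus strand).
Nfkbia: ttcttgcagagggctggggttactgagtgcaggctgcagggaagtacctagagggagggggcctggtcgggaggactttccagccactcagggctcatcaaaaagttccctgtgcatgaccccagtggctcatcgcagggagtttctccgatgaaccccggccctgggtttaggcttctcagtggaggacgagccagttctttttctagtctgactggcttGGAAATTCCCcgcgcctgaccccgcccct
Rel: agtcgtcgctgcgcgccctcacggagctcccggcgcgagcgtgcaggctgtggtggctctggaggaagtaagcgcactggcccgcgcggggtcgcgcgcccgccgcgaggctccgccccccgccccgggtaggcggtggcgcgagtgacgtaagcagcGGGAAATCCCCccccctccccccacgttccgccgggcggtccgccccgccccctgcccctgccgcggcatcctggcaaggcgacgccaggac
Nfkb2, site before the start: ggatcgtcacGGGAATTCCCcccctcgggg
Nfkb2, site after the start: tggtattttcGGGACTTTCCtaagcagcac
Nfkbid: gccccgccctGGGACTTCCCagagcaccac
The site of Nfkbia begins 29 bases before its start. The capitals of Rel, 92 bases before its start, hold 2 overlapping matches.

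The count table held between 20282062 and 31851982 counts per library, and its column headings gave the group but not the sample, so the libraries are called activated A and B and resting A and B. The letters follow the column order and were not used as pairs in the edgeR fit. Values of a group are given in the order A, B. Levels are CPM, counts scaled to a common library total with trimmed mean of M values factors, and 1 CPM stood for 20.3 to 30.6 counts. Members had between 267 and 14432 counts in a library. Fold changes are activated over resting Treg from edgeR's quasi-likelihood fit over all tested genes, with an approximate standard error (SE). No gene passed the adjusted threshold of 0.05 (0% higher and 0% lower, smallest edgeR adjusted p = 0.267). For a single value, the smallest two-sided p that an exact permutation test can give with 2 libraries a group is 0.333, so none was run. Of the genes that define Treg, Foxp3 was at 37.5 and 36.7 CPM in the activated libraries, against 38.8 and 35.1 CPM in the resting libraries. Cd44, an activation marker of T cells, was at 329 and 335 CPM in the activated libraries, against 145 and 213 CPM in the resting libraries. Both activated libraries lay above both resting ones for Cd44, as they did for 19.8% of all genes tested. Markers of plasmacytoid dendritic cells, a list of 8 genes, summed to 1164 and 375 CPM in the activated libraries, against 125 and 135 CPM in the resting libraries. Fewer cells of a type and less RNA per cell cannot be told apart in these bulk libraries.

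Relb and Nfkb2, the subunits of the noncanonical route, had the largest fold changes of the 5 subunits. Relb (chromosome 7 from 19606217 to 19629438, minus strand, mm10) was at 25.4 and 29.3 CPM in the activated libraries, against 12.98 and 17.6 CPM in the resting libraries. Both activated libraries lay above both resting ones, and the group means were 27.4 ± 2.78 CPM in activated Treg and 15.3 ± 3.29 CPM in resting Treg (SD, n = 2 each). The log2 fold change was 0.83 ± 0.25 (SE), a fold of 1.78, with an unadjusted edgeR p of 0.0211 and an edgeR adjusted p of 0.429. DESeq2 gave an adjusted p of 0.187, so Relb did not pass by either tool. In the authors' deposited table of regularized log2 values, Relb was at 9.25 and 9.44 in activated samples 1 and 2, against 8.41 and 8.80 in resting samples 1 and 2. Left-out libraries gave log2 fold changes of 0.94 and 0.72 when the missing one was activated A or activated B, and of 0.62 and 1.06 when it was resting A or resting B.

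Nfkb2 (chromosome 19 from 46304320 to 46312385, plus strand) was at 49.2 and 70.5 CPM in the activated libraries, against 31.8 and 53.2 CPM in the resting libraries. The groups overlapped, since resting B lay above activated A. Its log2 fold change was 0.49 ± 0.33, with an edgeR adjusted p of 0.849. It ranged from 0.16 without resting A to 0.89 without resting B, so the size of the difference depended on the library left out. The log2 ratio was 0.63 for activated A over resting A and 0.40 for activated B over resting B. These ratios were chosen after seeing the data and not tested. The regularized log2 values were 10.24 and 10.72 in activated samples 1 and 2, against 9.68 and 10.36 in resting samples 1 and 2. Exons of Nfkb2 share 299 bases with Psd on the other strand, which had 335 counts over all libraries against 5216 for Nfkb2; the sources give no strand setting for the counting.

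The canonical subunits Rela and Rel differed little between the groups. Rela (chromosome 19 from 5637483 to 5648130, plus strand), the main transactivating subunit, was at 227 and 258 CPM in the activated libraries, against 232 and 238 CPM in the resting libraries. Both resting values lay between the activated ones, and the log2 fold change was 0.05 ± 0.17 (edgeR adjusted p = 0.994), or -0.06 without activated B. Rel (chromosome 11 from 23736847 to 23770970, minus strand), which encodes c-Rel, was at 37.9 and 31.4 CPM in the activated libraries, against 35.3 and 32.3 CPM in the resting libraries. Its groups overlapped as well, with a log2 fold change of 0.04 ± 0.20 (edgeR adjusted p = 0.994), which turned to -0.04 without resting B and to -0.10 without activated A. Neither p shows that the levels were equal, and a log2 difference of the size of the SE could not be detected in these libraries. Nfkb1 (chromosome 3 from 135584655 to 135691547, minus strand), which encodes p105 and p50, was at 117 and 119.9 CPM in the activated libraries, against 93.6 and 108 CPM in the resting libraries. Its groups did not overlap, with a log2 fold change of 0.23 ± 0.17, but it did not pass (edgeR adjusted p = 0.885).

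**Figure D1:**
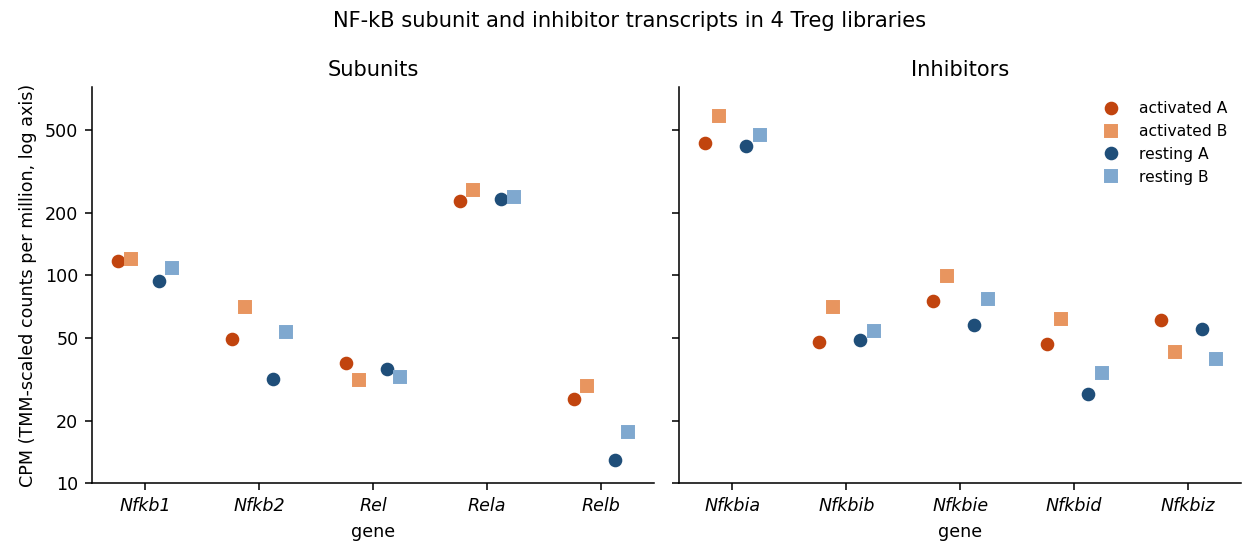
CPM on a log axis for each of the 10 genes (x axis), subunits on the left and inhibitors on the right, with 1 point per library and activated libraries left of resting ones. Both activated points lie above both resting points for Nfkb1, Relb and Nfkbid, while Rela sits between 227 and 258 CPM in all 4 libraries.

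The make-up of the subunit pool was compared within libraries, since shares do not depend on library scaling. Each CPM was divided by the summed exon length of its gene, and the 5 subunits were set to 100%. Rela made up 69.7% and 69.4% in the activated libraries, against 76.8% and 72.4% in the resting libraries. Relb made up 6.17% and 6.23% in the activated libraries, against 3.40% and 4.25% in the resting libraries. Both activated libraries were therefore above both resting ones for Relb and below both for Rela, although the Rela transcript itself was at a similar CPM. Nfkb2 took 10.1% and 12.7% in the activated libraries, against 7.06% and 10.9% in the resting libraries, with overlapping groups. The differences in mean share were 2.38 percentage points for Relb, 2.46 for Nfkb2 and -5.07 for Rela, with no test at this number of libraries. The Nfkb2 difference depended on the library left out. It was 3.74 and 1.18 points when activated A or activated B was missing, and 0.558 and 4.36 points when resting A or resting B was. The Rela difference was -2.89 points without resting A, and that of Relb stayed between 1.96 and 2.80 points. The shares themselves depended on the length used. Per kilobase of the longest CCDS transcript, Rela made up 57.9% and 57.9% in the activated libraries, against 66.2% and 61.2% in the resting libraries. The mean share of Nfkb1 in activated Treg was 18.7% on that length, against 8.68% on summed exon length.

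**Figure D2:**
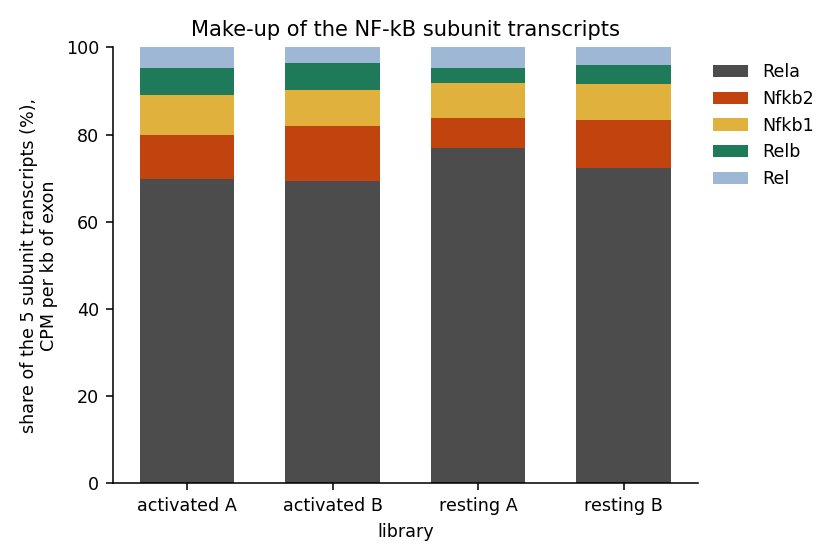
Stacked bars give the share of each subunit (y axis, percent of CPM per kilobase of exon) in each library (x axis). Rela fills 69.7% and 69.4% of the bar in activated Treg and 76.8% and 72.4% in resting Treg, and the Relb segment is taller in both activated bars than in both resting bars.

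The cytoplasmic inhibitors Nfkbia, Nfkbib and Nfkbie had overlapping groups. Nfkbia (chromosome 12 from 55489410 to 55492647, minus strand), which encodes IκBα and is a classical feedback target of NF-κB, was at 433 and 579 CPM in the activated libraries, against 416 and 471 CPM in the resting libraries. Activated B was the highest library and activated A lay between the resting ones, with a log2 fold change of 0.19 ± 0.21 (edgeR adjusted p = 0.953) that turned to -0.04 without activated B. Nfkbib (chromosome 7 from 28758251 to 28767512, minus strand), which encodes IκBβ, was at 47.7 and 70.2 CPM in the activated libraries, against 48.9 and 53.7 CPM in the resting libraries. Here activated A was the lowest library and activated B the highest; the log2 fold change of 0.20 ± 0.25 (edgeR adjusted p = 0.962) turned to -0.11 without activated B. Exons of Nfkbib share 42 bases with Sirt2 on the other strand, a gene with 12798 counts over all libraries against 5532 for Nfkbib. Nfkbie (chromosome 17 from 45555703 to 45563169, plus strand), which encodes IκBε, was at 74.9 and 98.8 CPM in the activated libraries, against 57.4 and 77.1 CPM in the resting libraries. Resting B lay above activated A, and the log2 fold change was 0.37 ± 0.24 (edgeR adjusted p = 0.838), from 0.15 without activated B to 0.58 without resting B.

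The atypical inhibitors act in the nucleus, where they bind NF-κB dimers on DNA. Nfkbid (chromosome 7 from 30421732 to 30428746, plus strand) encodes IκBNS, which is known to help induce Foxp3 in developing Treg. It was at 46.8 and 61.5 CPM in the activated libraries, against 26.7 and 33.8 CPM in the resting libraries, so both activated libraries lay above both resting ones. The means were 54.1 ± 10.4 CPM in activated Treg and 30.3 ± 5.01 CPM in resting Treg (SD, n = 2 each). The log2 fold change was 0.84 ± 0.24, a fold of 1.78 as for Relb, with an unadjusted edgeR p of 0.0171, an edgeR adjusted p of 0.400 and a DESeq2 adjusted p of 0.123. It ranged from 0.62 without activated B to 1.03 without activated A. In the authors' deposited regularized log2 table Nfkbid was at 10.15 and 10.52 in activated samples 1 and 2, against 9.43 and 9.74 in resting samples 1 and 2.

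Nfkbiz (chromosome 16 from 55811375 to 55838899, minus strand) encodes IκBζ, which macrophages induce on Toll-like receptor signals. It was at 61.1 and 42.8 CPM in the activated libraries, against 55.3 and 39.6 CPM in the resting libraries. The libraries of a group differed more than the groups did, and the log2 fold change of 0.13 ± 0.28 (edgeR adjusted p = 0.993) turned to -0.10 without resting B and to -0.14 without activated A. The 7 macrophage markers summed to 293 and 36.8 CPM in the activated libraries, against 283 and 9.56 CPM in the resting libraries, with none at 0 in either group. The libraries with the higher Nfkbiz level in each group were thus those with the higher macrophage sum, and the part of macrophage RNA in the Nfkbiz level was not tested.

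**Figure D3:**
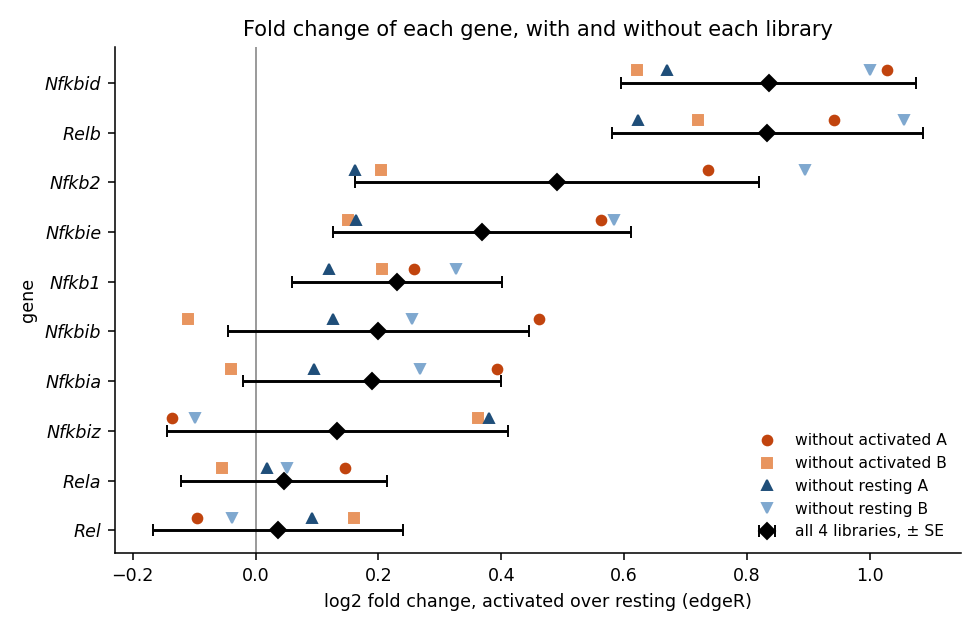
Log2 fold changes of activated over resting Treg (x axis) for each gene (y axis); diamonds with bars are the fit on all 4 libraries ± SE and coloured symbols are fits that leave out 1 library. Nfkbid and Relb keep values of at least 0.62 in every fit, while the symbols of Rel, Rela, Nfkbia, Nfkbib and Nfkbiz fall on both sides of 0.

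Over all 10 genes the log2 fold changes lay between 0.04 and 0.84, all above 0, with a median of 0.21 against -0.01 over all genes tested, of which 49.1% lay above 0. The 10 values come from the same 4 libraries and are not independent of each other. Without activated A the median was 0.43 and without resting A it was 0.14. When libraries were left out, 5 genes kept a value above 0 in all 4 fits, namely Nfkb1, Nfkb2, Relb, Nfkbie and Nfkbid. The share of all tested genes that did so was not computed, so this count cannot be read as a trait of the 10 genes. At an unadjusted edgeR p under 0.05 Relb and Nfkbid were higher, 2 of 10, where 6.3% of all genes were higher, and 0 of 10 were lower, where 2.61% of all genes were. At that unadjusted threshold 2 of 10 were higher and 0 of 10 lower by DESeq2 (6.83% and 2.91% of all genes), by limma-voom (6.35% and 2.59%) and by limma on the regularized log2 values (6.98% and 2.56%). By DESeq2's adjusted p, 0 of 10 passed, where 2.28% of all genes were called higher and 0.829% lower. When 1 library was left out, 0 of 10 passed edgeR's adjusted threshold each time, where 0% of all genes were higher and 0% lower without activated A. The shares of all genes were 0.39% higher and 0.0198% lower with activated B missing, 2.08% and 0.224% with resting A missing, and 1.13% and 0.142% with resting B missing. Activated libraries lay above resting ones without overlap for 3 of 10 genes, where 19.8% of all genes did, and below for 0 of 10, where 17.4% did.

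Levels between genes were compared per kilobase of exon. In activated Treg the order was Nfkbia at 314 ± 64.1 CPM per kilobase, Rela at 78.9 ± 7.18, Nfkbie at 28.5 ± 5.54, Nfkbib at 27.2 ± 7.34, Nfkbid at 23.1 ± 4.43, Nfkb2 at 13.1 ± 3.28, Nfkbiz at 10.4 ± 2.58, Nfkb1 at 9.82 ± 0.179, Relb at 7.04 ± 0.715 and Rel at 4.64 ± 0.614 (SD, n = 2). Nfkbia and Rela stood apart from the rest, whereas Nfkbie, Nfkbib and Nfkbid, and likewise Nfkb2, Nfkbiz and Nfkb1, did not differ from their neighbours beyond their spread. In resting Treg, Relb at 3.94 ± 0.846 CPM per kilobase stood last, beside Rel at 4.53 ± 0.286. The places of Nfkb1 and Relb depended on the length used. Per kilobase of the longest CCDS transcript, resting Treg had Relb at 6.93 ± 1.49 CPM and Rel at 4.53 ± 0.286 CPM, so that Rel stood last. For Nfkb1, the summed exons cover 12061 bases and that transcript 4117, and on the shorter length Nfkb1 was at 28.8 ± 0.525 CPM per kilobase in activated Treg and at 24.5 ± 2.52 in resting Treg.

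The summed inhibitors stood at 3.28 and 3.79 times the summed subunits per kilobase in the activated libraries, against 3.28 and 3.42 times in the resting libraries. The groups overlapped, since activated A lay between the resting libraries, and the ratio of the group means was 1.06. Without Nfkbia, the most abundant of the 10, the ratio was 0.744 and 0.823 in the activated libraries, against 0.650 and 0.678 in the resting libraries. Both activated libraries then lay above both resting ones, and Nfkbid was the inhibitor with the largest difference among the remaining 4.

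Between libraries of 1 group, 8 of 10 genes were higher in activated B than in activated A and also higher in resting B than in resting A. Rel and Nfkbiz showed the opposite order in both groups. The share of all tested genes with either order was not computed, so these counts cannot be read as a trait of the 10 genes. By the root mean square difference of log2 CPM values centred on each gene's mean, over 4 libraries, Relb and Nfkbid were each other's nearest member (0.0755). Nfkbia and Nfkbib were also each other's nearest (0.0511), as were Rel and Nfkbiz (0.158). Among 81 tested pathway genes Icam1, an adhesion molecule and NF-κB target, was nearest to Relb (0.0841) and to Nfkbid (0.0922). Bcl2l1, the survival gene for Bcl-xL, was nearest to Nfkb2 (0.0600), and Traf1, a TNF receptor adaptor, was nearest to Nfkb1 (0.0498). Nearest to Rel was Tab2 (0.0163), to Rela Sharpin (0.0436), to Nfkbia Sod2 (0.0397), to Nfkbib Ltb (0.0529), to Nfkbie Bcl2l1 (0.0815) and to Nfkbiz Birc2 (0.0953). These distances describe 4 points each and carry no test.

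**Figure D4:**
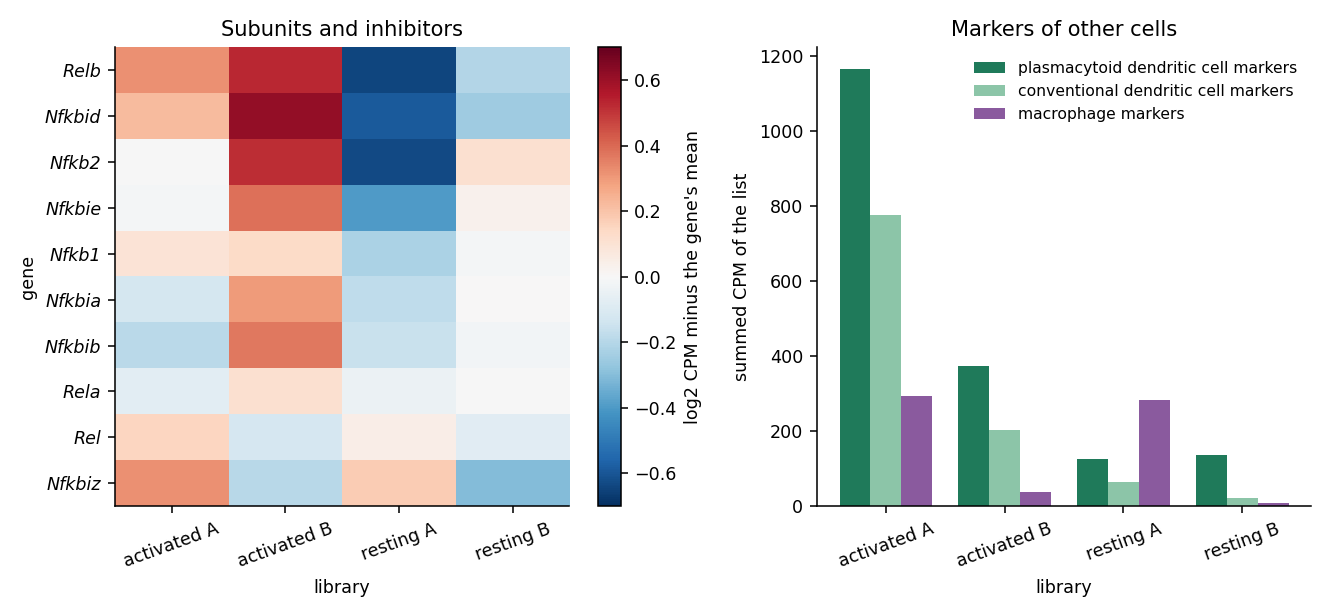
The left panel shows log2 CPM minus each gene's mean (colour) for the 10 genes (y axis) in each library (x axis); the right panel shows summed CPM of 3 marker lists (y axis) by library. Relb and Nfkbid are high in both activated libraries, while Nfkbiz is high in activated A and resting A, which have macrophage sums of 293 and 283 CPM.

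Dendritic cells express Relb strongly, so their markers were read beside it. All 8 plasmacytoid and all 7 conventional dendritic cell markers were above 0 in log2 fold change, with medians of 3.93 and 3.63. Conventional markers summed to 776 and 204 CPM in the activated libraries, against 63.6 and 22.7 CPM in the resting libraries. Siglech, a defining plasmacytoid gene, was at 279.7 and 58.7 CPM in the activated libraries, against 0.778 and 0.261 CPM in the resting libraries. Both dendritic sums were higher in activated A than in activated B, and in activated B they still lay above those of both resting libraries. Relb and Nfkbid were higher in activated B than in activated A. Without activated A the log2 fold changes of Relb and Nfkbid were 0.94 and 1.03. The part of dendritic cell RNA in the level of any of the 10 genes was not tested. Of the B cell markers, Cd79b was at 60.0 and 81.2 CPM in the activated libraries, against 28.3 and 48.6 CPM in the resting libraries. The 8 B cell genes, of which 7 were listed, summed to 1284 and 1913 CPM in the activated libraries, against 759 and 952 CPM in the resting libraries, most of it Ighm. Of the 4 neutrophil genes 3 were at 0 in both resting libraries and none passed the filter, and the 4 natural killer cell genes summed to 4.28 to 16.5 CPM over the libraries. The CD8 T cell genes Cd8a and Cd8b1 summed to 81.8 and 35.8 CPM in the activated libraries, against 30.4 and 27.3 CPM in the resting libraries.

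The kinases and adaptors that switch NF-κB on lay on both sides of 0. Of 25 measured, 10 lay above 0 and 15 below, with a median log2 fold change of -0.04. None was higher at an unadjusted edgeR p under 0.05 and 1 was lower, where 6.3% and 2.61% of all genes were. That gene was Prkcq, the kinase PKCθ that links the T cell receptor to NF-κB, at 259 and 229 CPM in the activated libraries, against 343 and 340.3 CPM in the resting libraries (log2 fold change -0.49 ± 0.17, edgeR adjusted p = 0.484). The most abundant of the others were the kinase genes Ikbkb (IKKβ) and Ikbke (IKKε) and the adaptor Traf2, with log2 fold changes of -0.32 ± 0.24, -0.36 ± 0.17 and 0.27 ± 0.21, and none passed.

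Receptors and adaptors tied to the noncanonical route had a median log2 fold change of 0.63, with 6 of 10 tested above 0. Of these 10, 2 were higher and 0 lower at an unadjusted edgeR p under 0.05, where 6.3% and 2.61% of all genes were. Tnfrsf1b, the TNF receptor 2 of Treg, was at 297 and 597 CPM in the activated libraries, against 136 and 251 CPM in the resting libraries (log2 fold change 1.21 ± 0.45, edgeR adjusted p = 0.531). Its value was 0.61 without activated B. Cd40, a receptor of B cells and dendritic cells, was at 2.52 and 2.32 CPM in the activated libraries, against 0.0972 and 0.686 CPM in the resting libraries. Ltbr was also low, at 3.47 and 0.987 CPM in the activated libraries, against 1.07 and 0.0653 CPM in the resting libraries. Cd40 and Ltbr had the 2 largest log2 fold changes of the tested genes in this list, 2.37 ± 0.84 and 1.88 ± 1.20, and both rest on few counts. That of Ltbr was 0.76 without activated A. Tnfrsf4, which encodes OX40, had a log2 fold change of 0.82 ± 0.51 and 0.09 without activated B. Tnfrsf18 (GITR) and Cd27 gave log2 fold changes of 0.43 ± 0.40 and -0.19 ± 0.16, and Tnfrsf18 turned to -0.15 without activated B. Map3k14 itself was at 80.9 and 79.0 CPM in the activated libraries, against 106 and 85.5 CPM in the resting libraries, and its brake Traf3 had a log2 fold change of -0.11 ± 0.18.

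Negative regulators of NF-κB, 20 genes, had a median of 0.05, with 12 above 0. None was past an unadjusted edgeR p under 0.05 in either direction, where 6.3% of all genes were higher and 2.61% lower. Tnfaip3, which encodes the deubiquitinase A20, was at 85.2 and 94.2 CPM in the activated libraries, against 71.9 and 57.9 CPM in the resting libraries. Its groups did not overlap, yet it missed the threshold (edgeR adjusted p = 0.596). The abundant Tax1bp1 (-0.22 ± 0.26), Nlrc5 (-0.08 ± 0.19) and Cyld (-0.11 ± 0.26) did not pass, and all 3 lay above 0 without activated B.

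Textbook NF-κB targets outside the 10 genes lay further from 0, with a median log2 fold change of 0.64 over 26 tested genes, 21 of them above 0. At an unadjusted edgeR p under 0.05, 10 of 26 were higher and 1 was lower, where 6.3% and 2.61% of all genes were. DESeq2 called 5 higher and 0 lower by adjusted p, where 2.28% and 0.829% of all genes were. Those 5 were Icam1, the costimulation marker Cd83 and the chemokines Ccl4, Ccl5 and Cxcl10. Icam1 was at 106 and 119.6 CPM in the activated libraries, against 59.5 and 68.7 CPM in the resting libraries (log2 fold change 0.82 ± 0.18, DESeq2 adjusted p = 0.0215, edgeR adjusted p = 0.323). Cd83 was at 493 and 884 CPM in the activated libraries, against 130.5 and 275 CPM in the resting libraries (log2 fold change 1.76 ± 0.46, DESeq2 adjusted p = 0.004). Ccl5 was at 145 and 205 CPM in the activated libraries, against 8.56 and 20.5 CPM in the resting libraries (log2 fold change 3.58 ± 0.49, DESeq2 adjusted p = 1.62e-12). Cxcl10 and Ccl4 had log2 fold changes of 2.58 ± 0.52 and 3.71 ± 0.90, while Ccl3 and Csf2 stayed under 1 CPM in every library and Plk3, a stress kinase gene, had 1.33 ± 0.43. The targets were not all of one direction. Myc was at 184 and 194 CPM in the activated libraries, against 249 and 289.6 CPM in the resting libraries (log2 fold change -0.51 ± 0.17, edgeR adjusted p = 0.485). The abundant targets Irf1, Ltb and Traf1 had log2 fold changes of 0.04 ± 0.16, 0.23 ± 0.21 and 0.31 ± 0.16 and did not pass. The sign turned for Irf1 without resting B (-0.05) and for Ltb without activated B (-0.02). Vcam1, which red pulp macrophages express, followed the macrophage sums, at 179 and 8.93 CPM in the activated libraries, against 224 and 4.41 CPM in the resting libraries. Chemokines and Cd83 are also made by dendritic and other cells, and the part of those cells in these values was not tested.

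**Figure D5:**
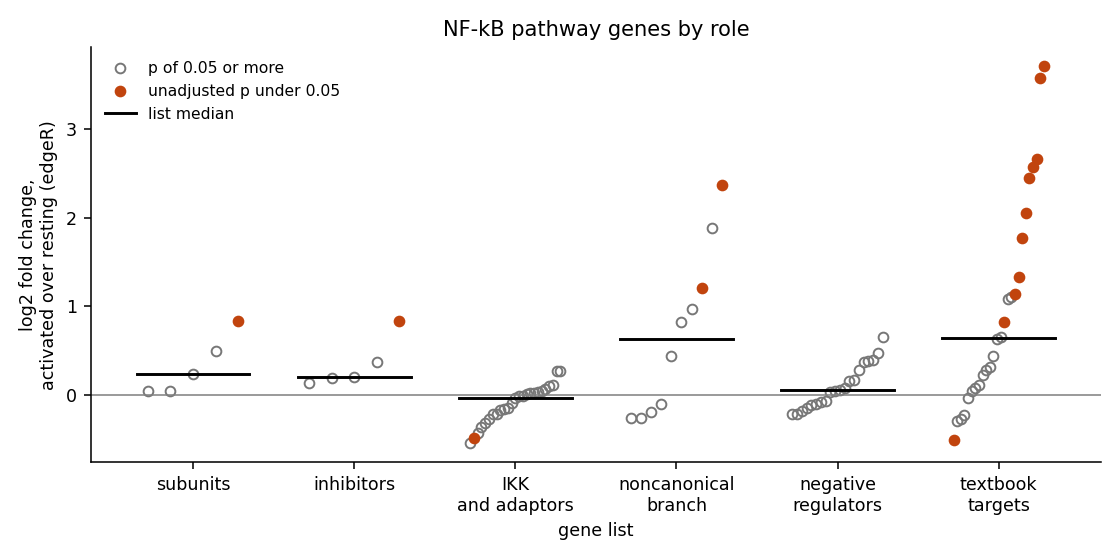
Log2 fold changes of activated over resting Treg (y axis) for the tested genes of 6 lists (x axis), with filled points for an unadjusted edgeR p under 0.05 and a line at each list's median. The medians of the noncanonical list (0.63) and of the targets (0.64) lie above those of the subunits (0.23), inhibitors (0.20), negative regulators (0.05) and kinases and adaptors (-0.04).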

How the data were processed

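RNA of sorted spleen Treg was amplified with the SMART-seq v4 low-input kit, per the labels' protocols, so counts are reads and not molecules. STAR 2.4.0c, featureCounts, DESeq2 and the mm10 build appear in the submitters' processing notes, with no roles. The authors deposited raw counts per gene for 38924 identifiers and a table of regularized log2 values, made with DESeq2 going by that table's name. The annotation and strand setting of the counting were not stated. Symbols, positions and exon lengths came from GENCODE M21 (mm10), which held 37607 of the identifiers.

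Genes kept by filterByExpr (minimum count 10, minimum total 15) were tested for activated against resting in edgeR 4.0.16 under R 4.3.3, with p-values adjusted by Benjamini-Hochberg and a prior count of 2. The SE was taken as the size of the log2 fold change divided by the root of F. DESeq2 1.42.0, limma 3.58.1 and other scalings and filters were alternatives, and the edgeR steps were tested on simulated data. Besides the 10 genes, those named are list genes with an unadjusted edgeR p under 0.05 or a DESeq2 call (up to 8 a list, some left out here), the 3 most abundant others of a list and the nearest genes. Foxp3, Map3k14, Traf3, Ltbr, Tnfaip3, Myc and Vcam1 were chosen after their values were seen. The members and lists were chosen with earlier results of these data known. Some marker genes are not reported here.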

Additional observations from a re-analysis of the deposited data

How the results depend on the processing

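No member was called under any of the 11 alternatives to the edgeR fit. Counts of called genes over all genes were 852 without the low-count filter and 442 with DESeq2, against 0; leaving out 1 library gave 0 to 370. With the replicate number of the regularized log2 table as a block, limma called 819 genes and 0 of the 10 members. Without the block it called 0 genes (1358 at an unadjusted p under 0.05). With the block, Nfkbid and Relb lay just past the threshold, at limma adjusted p of 0.052 and 0.060. Without it their limma adjusted p were 0.422 and 0.405. Same-numbered samples had a deviation correlation of 0.652, but 2 numbers do not show that animals were paired. The cause of these differences was not tested. The median member log2 fold change was 0.14 to 0.43 when libraries were left out. Over the same fits the range was -0.10 to 0.16 for Rel, -0.055 to 0.15 for Rela, -0.040 to 0.39 for Nfkbia, -0.11 to 0.46 for Nfkbib and -0.14 to 0.38 for Nfkbiz. Activated B over resting B, a comparison chosen after seeing the data, gave -0.040 for Rel and the same sign as the full fit for the other 9. Activated A over resting A gave -0.031 for Rela and -0.034 for Nfkbib, and the same sign as the full fit for the rest. The Relb share differed by 2.96 points on CCDS transcript length (chosen after seeing the data), against 2.38, and the inhibitor ratio was 1.18 without Nfkbia, against 1.06. With 2 libraries a group, a member's difference of about 1.78-fold did not pass. Spread between animals and between library preparations cannot be told apart.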
